A study of Mus musculus with 6 samples.

Results

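The genes described here make up the folding and translocation machinery of the endoplasmic reticulum (ER), the compartment in which secreted and membrane proteins are made. They were listed by known function as 47 genes in 8 roles, by a rule that uses no measured value, though with earlier results of these data known. Values were at hand for 45 of the 47 in a deposited table of 12894 gene IDs, and Pdia5 and Sec61g were not analysed here. All 45 passed the filter on low values. The RNA came from bulk epidermis, the outer layer of the skin, separated from the dermis of C57BL/6 mice at postnatal day 0. The 3 libraries labelled Hnrnpu knockout were made with a loxP-Cre system, and the promoter that drives Cre is not given in the sources used here. Of the 3 controls, control 1 carried the genotype label wild type, while controls 2 and 3 carried the word "Heterogenous", taken here to mean heterozygous. The product of Hnrnpu is an RNA-binding protein of the nucleus.

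Proteins enter the ER through the Sec61 channel, often while still being translated, and many receive N-linked glycans from the oligosaccharyltransferase. Chaperones, disulfide enzymes and lectins then fold them, and products that fail to fold are sent back to the cytosol for destruction, a route called ER-associated degradation (ERAD). When unfolded proteins build up, sensors in the ER membrane (IRE1, ATF6 and PERK) start the unfolded protein response, which raises transcription of many of these genes. Keratinocytes, the main cells of the epidermis, make their adhesion receptors and secreted proteins by this route. XBP1 and ATF6 are known in many cell types to act through a promoter sequence called the ER stress response element (ERSE).

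The ERSE was searched in RefSeq promoters (GRCm38.p6, from 250 bases before to 50 bases after each start site), and 40 of the 47 genes had one. The motif was CCAAT, then 9 free bases, then CCACG, on either strand. It lay in the promoters of 9 of these 40 genes, or 22.5%, against 37 of 27025 genes (0.137%) and 39 of 32851 promoters (0.119%) in the whole table. The 9 genes were Hspa5, Hsp90b1, Calr, Canx, Pdia6, Dnajc3, Creld2, Ero1b and Syvn1. Many of the listed genes are known to be raised by the unfolded protein response, so their choice is not independent of this motif. The difference between these shares was not tested. The stretches are shown because they are a sequence that these 9 genes share. Each is written along the gene's own strand, with the 2 ends of the element (CCAAT and CCACG) in capitals, and a site on the other strand reads CGTGG, 9 free bases, ATTGG. The first 5 belong to genes that were higher in the knockout-labelled libraries and the last 4 to genes that did not pass the test.
Hspa5 (chr2:34772017-34772051, + strand): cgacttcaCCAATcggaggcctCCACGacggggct
Calr (chr8:84847067-84847101, - strand): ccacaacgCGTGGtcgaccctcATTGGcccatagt
Canx (chr11:50325792-50325826, - strand): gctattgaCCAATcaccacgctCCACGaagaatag
Pdia6 (chr12:17266483-17266517, + strand): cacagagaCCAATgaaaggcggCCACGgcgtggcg
Hsp90b1 (chr10:86705525-86705664, - strand, 2 sites): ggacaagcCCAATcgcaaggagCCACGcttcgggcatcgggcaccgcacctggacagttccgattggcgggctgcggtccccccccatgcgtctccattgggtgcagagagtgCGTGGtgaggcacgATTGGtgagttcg
Dnajc3 (chr14:118937819-118937853, + strand): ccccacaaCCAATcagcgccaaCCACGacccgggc
Creld2 (chr15:88819512-88819546, + strand): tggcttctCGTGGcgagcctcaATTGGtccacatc
Ero1b (chr13:12565674-12565708, + strand): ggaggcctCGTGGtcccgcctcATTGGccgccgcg
Syvn1 (chr19:6046524-6046558, + strand): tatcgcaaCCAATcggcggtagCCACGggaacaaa

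A related element, ERSE-II (ATTGG, 1 free base, CCACG, either strand), lay in 2 of the 40 genes, Herpud1 and Dnajb11, and in 12 of 27025 genes (0.0444%) and 12 of 32851 promoters (0.0365%) overall. In Herpud1 it starts at position -52 from the start site. The 8 bases TGACGTGG, the core of the element bound by XBP1, were in none of the 40 and in 0.676% of all promoters, and the ATF4 core TGATGCAAT was in none of the 40 and in 0.192%. These counts cover exact letters in this window only, and a match is a description of the sequence.

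Values are the authors' normalized counts per gene, and an estimated 6450000 to 9110000 reads per library lay behind them. The targeted gene does not check the labels, because Hnrnpu had 1565, 1342 and 1036 normalized counts in the knockout-labelled libraries 1 to 3, against 1450, 1318 and 1160 in controls 1 to 3. Its log2 change was -0.01 ± 0.20 (SE, n = 3 and 3; limma adjusted p = 0.976, and p = 1 in an exact two-sided permutation test, which cannot go below 0.1 here), and which exons were removed is not given in the sources used here. By Xist and the Y-linked transcripts, the knockout-labelled libraries 2 and 3 came from females and the other 4 from males. Most keratinocyte markers were abundant in every library, with sums over 7 suprabasal markers of 574518 to 865727 normalized counts in knockout-labelled libraries and 788432 to 881050 in controls, and over 7 basal markers of 31142 to 125447 and 16437 to 44926. Of the suprabasal markers Dsc1 rose and 0 fell. Of the basal markers Krt14 rose (log2 change 3.21 ± 0.61) and carried most of the higher sum. Krt15 fell (-6.84 ± 0.76), with 50.5, 5.10 and 52.1 normalized counts in knockout-labelled libraries and 4009, 3406 and 1833 in controls. With adjacent animal numbers as a block Krt5, Itga6, Col17a1 and Trp63 also passed as lower (limma adjusted p = 0.0374, 0.00148, 0.0315 and 0.0258) and Itgb4 as higher (0.00788). All 11 measured melanocyte markers were higher in the knockout-labelled libraries, with summed levels of 3656 to 5696 normalized counts there and 541 to 810 in controls. Of 9 dermal fibroblast markers 4 were higher and 1 lower, with sums of 930 to 1610 and of 1555 to 3283. Of 12 leukocyte markers 4 were higher and 2 lower, with sums of 951, 9362 and 609 in the knockout-labelled libraries 1 to 3 and of 444 to 727 in controls, and S100a8 was listed at 0 in every control. Of 15 immediate early genes, which respond to handling, 6 were higher. None of the 8 plasma and B cell markers or of the 6 skeletal muscle markers had a value, and of 6 endothelial markers 1 had. The part of these cells in the results below was not tested.

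ER folding and translocation genes were shifted upward in the knockout-labelled libraries. Of the 45, 22 rose and 0 fell (limma, Benjamini-Hochberg adjusted over 12872 genes, threshold 0.05), where 17.7% of all genes tested rose, 15.9% fell and 33.6% did either. The share that rose was 48.9%. Their median log2 change was 0.59, against -0.02 for all genes tested, and 38 of the 45 changes were positive. At least 2-fold rises were found for 12 of the 45 genes, against 1550 of the 12872 genes tested (12.0%). The 3 values of the knockout-labelled libraries lay wholly above the 3 control values for 32 of the 45 (25.8% of all genes) and wholly below for Sdf2l1, Ero1b and Edem2 (25.0% of all genes). The summed level of the 45 genes was 47383, 57170 and 50438 normalized counts in the knockout-labelled libraries 1 to 3, against 26650, 29520 and 29116 in controls 1 to 3. That was 0.578, 0.520 and 0.596% of each knockout-labelled library and 0.389, 0.403 and 0.391% of each control. In bulk tissue, more cells of a type and more RNA per cell cannot be told apart.

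**Figure D1:**
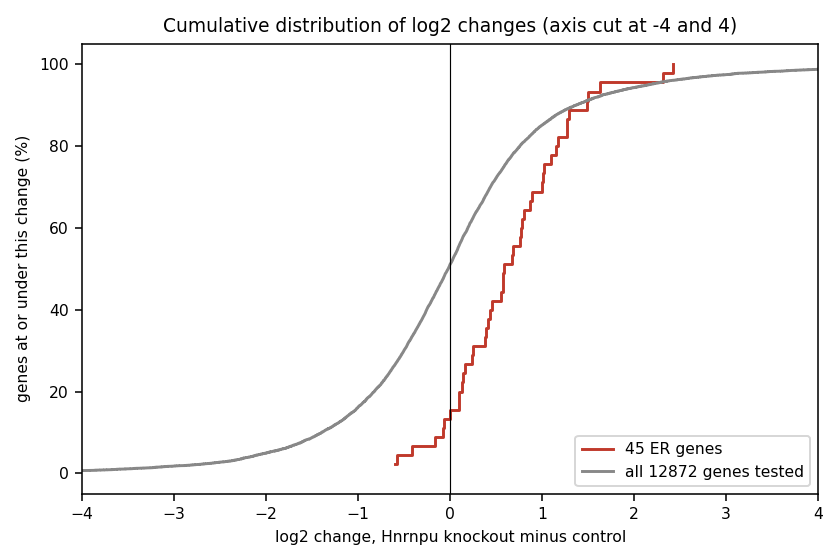
Cumulative share of genes (y axis, percent) at or under a log2 change of knockout minus control (x axis), for the 45 ER genes in red and all 12872 genes tested in grey. The red curve lies right of the grey one through its lower and middle part, with medians of 0.59 and -0.02.

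The 3 knockout-labelled libraries moved in the same direction. Set against the mean of the controls, the median ER gene differed by 0.59, 0.75 and 0.53 on the log2 scale in knockout 1, 2 and 3, and 37, 38 and 39 of the 45 lay above 0. Each control set against the other 2 controls gave a median of -0.08, 0.05 or 0.04. Knockout 2 held the highest of the 3 values for 16 of the 22 genes that rose, a count given without the share over all genes. Its normalized counts summed to 10987666, against 8191409 in knockout 1 and 8469679 in knockout 3. The 45 genes made up 0.520% of the knockout 2 sum, the lowest share of the 3 knockout-labelled libraries. Knockout 2 is also the shallowest library, with 1 read worth 1.70 normalized counts, and holds the leukocyte sum of 9362 given above. The part of the library sum and of the leukocyte sum was not tested. Without knockout 2, 19 of the 45 rose, a count given without the share of all genes in that fit. Since knockout 2 and 3 are the female libraries, sex was also added as a term, which leaves the difference between knockout 1 and the male controls. The median ER gene then changed by 0.59, and 8 rose (Ern1, Atf6, Hspa5, Calr, Sel1l, Ssr2, Ssr4 and Dad1), and 0 fell, where 5.54% of all genes rose and 4.47% fell.

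All 4 sensors and transcription factors of the unfolded protein response rose. Ern1, which encodes the sensor and RNase IRE1, had 688, 783 and 439 normalized counts in the knockout-labelled libraries 1 to 3, against 232, 199 and 170 in controls 1 to 3. The lowest of them, knockout 3, was still above every control, and the log2 change was 1.63 ± 0.25 (limma adjusted p = 0.00231). Xbp1, the factor whose mRNA IRE1 splices, had 1748, 2509 and 1740 normalized counts in the knockout-labelled libraries, against 559, 634 and 958 in controls. The highest control, control 3, lay well under the lowest knockout-labelled library, and the change was 1.50 ± 0.25 (limma adjusted p = 0.00319). A gene count sums the spliced and unspliced forms of Xbp1, so the splicing itself was not measured. Atf6, a sensor that is cut to release a transcription factor, had 1519, 1747 and 1006 normalized counts in the knockout-labelled libraries, against 515, 468 and 504 in controls, a change of 1.48 ± 0.22 (limma adjusted p = 0.00212). Its paralog Atf6b rose by less, with 765, 920 and 929 normalized counts in the knockout-labelled libraries and 433, 528 and 577 in controls. That change was 0.77 ± 0.18 (limma adjusted p = 0.0143), and it missed the threshold without control 1 (0.0622) and with equal library totals (0.0945).

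Among the 10 lumenal chaperones and co-chaperones, 6 rose and 0 fell, with a median log2 change of 0.95. Hspa5, the ER Hsp70 known as BiP, showed the largest change of the 45 genes and was the only one called in the main fit and in all 17 alternatives. It had 4802, 7768 and 7709 normalized counts in the knockout-labelled libraries 1 to 3, against 864, 1481 and 1463 in controls 1 to 3. Every knockout-labelled library exceeded the highest control more than 3 times over, and the log2 change was 2.42 ± 0.28, a 5.35-fold rise (95% interval 1.79 to 3.05 on the log2 scale; limma adjusted p = 6.45e-04). Dnajb9, the co-chaperone ERdj4, had 654, 1288 and 393 normalized counts in the knockout-labelled libraries, against 138, 194 and 98.1 in controls. Its groups did not overlap, but the values spread widely among the knockout-labelled libraries, and the change was 2.32 ± 0.42 (limma adjusted p = 0.00484).

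Hyou1, a large Hsp70-type exchange factor for BiP, had 1216, 1174 and 1134 normalized counts in the knockout-labelled libraries, against 402, 535 and 685 in controls. The knockout-labelled libraries were close to each other and all above the controls, with a log2 change of 1.15 ± 0.21 (limma adjusted p = 0.00513). Hsp90b1, the ER Hsp90 known as GRP94, had 1162, 1273 and 1539 normalized counts in the knockout-labelled libraries and 595, 780 and 771 in controls. It rose by 0.89 ± 0.19 (limma adjusted p = 0.00925), a call lost with equal library totals (0.0671). Of its annotated exonic bases 15.7% are shared with other genes, the highest share among the 45, and strand use in counting is not given. Dnajb11, the co-chaperone ERdj3, rose by 1.02 ± 0.22 and the secreted factor Manf by 0.80 ± 0.18 (limma adjusted p = 0.0103 and 0.0107), and with equal library totals Dnajb11 changed by 0.68 and Manf missed the threshold (0.0904).

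The other 4 chaperones did not pass. Dnajc3, the co-chaperone P58IPK, had 364, 388 and 393 normalized counts in the knockout-labelled libraries, against 338, 360 and 349 in controls, a narrow gap with no overlap. Its log2 change was 0.13 ± 0.16 (95% interval -0.24 to 0.50). Creld2 had low levels of 40.2, 45.9 and 81.0 normalized counts in the knockout-labelled libraries, against 18.1, 14.2 and 37.6 in controls, and a change of 1.27 ± 0.45 (limma adjusted p = 0.0587). Creld2 passed without control 3 (0.0368), with quantile normalization (0.0471) and with adjacent animal numbers as a block (0.0139). Dnajc10, a reductase of misfolded proteins, changed by 0.56 ± 0.21 (limma adjusted p = 0.0714, and 0.0420 with the block). Sdf2l1, which works with the co-chaperones of BiP, went the other way, with 39.2, 35.7 and 37.7 normalized counts in the knockout-labelled libraries, against 56.6, 43.4 and 73.6 in controls. All 3 knockout-labelled libraries were below the lowest control, and the change of -0.58 ± 0.30 did not pass (95% interval -1.25 to 0.10; limma adjusted p = 0.159).

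**Figure D2:**
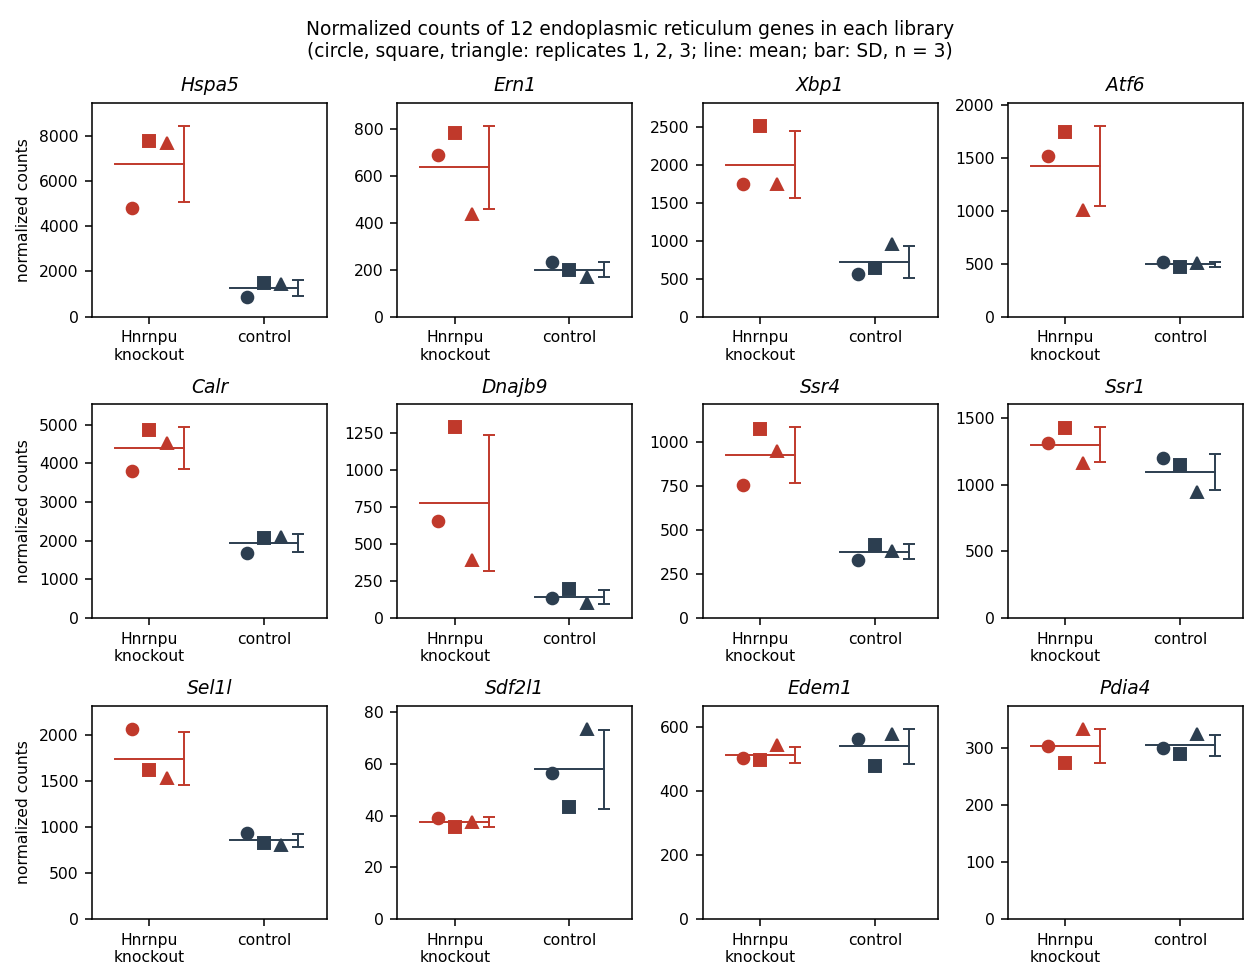
Normalized counts (y axis, from 0) of 12 ER genes in each library, knockout-labelled libraries in red on the left and controls in dark blue on the right, with the mean as a line and the SD as a bar (n = 3). For Hspa5, Ern1, Xbp1, Atf6, Calr, Dnajb9, Ssr4 and Sel1l the red points lie above all dark blue points, for Sdf2l1 below them, and for Ssr1, Edem1 and Pdia4 the groups overlap.

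The disulfide enzymes form and shuffle the bonds between cysteines. Of the 5 measured, 2 rose and 0 fell, with a median log2 change of 0.43. P4hb, the main protein disulfide isomerase, had 5023, 6748 and 5385 normalized counts in the knockout-labelled libraries, against 3562, 3801 and 3991 in controls. It rose by 0.59 ± 0.18 (limma adjusted p = 0.0345) but missed the threshold in 9 of the 17 alternatives, among them those without control 1, 2 or 3 or without knockout 2 (0.117, 0.110, 0.0872 and 0.0631), and its change was 0.08 with quantile normalization. Pdia6, another isomerase, had 468, 459 and 459 normalized counts in the knockout-labelled libraries, against 273, 336 and 267 in controls, and rose by 0.67 ± 0.17 (limma adjusted p = 0.0204). That call was lost without control 1 or control 3 and with equal library totals (0.0779, 0.0799 and 0.232). The glycoprotein isomerase Pdia3 changed by 0.43 ± 0.17 (limma adjusted p = 0.0854, and 0.0418 with the block). Pdia4 was level, with 304, 274 and 334 normalized counts in the knockout-labelled libraries, against 300, 289 and 324 in controls, and the 95% interval of its log2 change ran from -0.41 to 0.39. Ero1b, an oxidase that recharges the isomerases, had 34.6, 34.0 and 39.9 normalized counts in the knockout-labelled libraries and 52.9, 45.2 and 47.4 in controls. Its groups did not overlap, but the change of -0.41 ± 0.27 did not pass.

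Both lectin chaperones, which bind glycoproteins during folding, rose. Calr, the soluble calreticulin, had 3799, 4862 and 4523 normalized counts in the knockout-labelled libraries, against 1684, 2081 and 2089 in controls. All 3 knockout-labelled libraries were above every control, with a log2 change of 1.17 ± 0.18 (limma adjusted p = 0.00225), or 0.73 with quantile normalization. Canx, the membrane-bound calnexin, had 2954, 3205 and 3258 normalized counts in the knockout-labelled libraries, against 1874, 1890 and 1802 in controls. It rose by 0.76 ± 0.15 (limma adjusted p = 0.00674), and missed the threshold with equal library totals and with quantile normalization (0.0715 and 0.111).

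Of the 9 ERAD genes 2 rose and 0 fell, where 17.7% of all genes rose and 15.9% fell. Their median log2 change was 0.09, against -0.02 for all genes tested. The share of rises in this role was thus near that of all genes. Sel1l, the adaptor of the HRD1 ubiquitin ligase, had 2073, 1628 and 1541 normalized counts in the knockout-labelled libraries, against 941, 828 and 809 in controls. The groups were well apart, and the change was 1.01 ± 0.18 (limma adjusted p = 0.00410), or 0.67 with equal library totals. Derl1, a channel component, had 1134, 1369 and 974 normalized counts in the knockout-labelled libraries and 556, 561 and 614 in controls, a change of 0.99 ± 0.18 (limma adjusted p = 0.00481), or 0.65 with equal library totals. Syvn1, the HRD1 ligase itself, changed by 0.38 ± 0.18 (limma adjusted p = 0.127), although its 520, 595 and 583 normalized counts in the knockout-labelled libraries all exceeded the 372, 474 and 463 of the controls.

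The mannosidase-like genes Edem1 and Edem3, which mark misfolded glycoproteins, changed by -0.07 ± 0.17 and -0.07 ± 0.19. Edem1 had 501, 495 and 541 normalized counts in the knockout-labelled libraries, against 562, 476 and 578 in controls, so its groups overlapped. Edem2 had 103, 85.1 and 131 normalized counts in the knockout-labelled libraries, against 142, 145 and 194 in controls, with no overlap. Its change of -0.60 ± 0.24 did not pass (limma adjusted p = 0.0910), but Edem2 passed as lower with the block (0.0362), with equal library totals (0.0424) and without knockout 3 (0.0488). The ubiquitin-like membrane protein Herpud1 had 1125, 1058 and 486 normalized counts in the knockout-labelled libraries, against 332, 677 and 422 in controls. Knockout 3 lay among the controls, and the change of 0.87 ± 0.37 passed without knockout 3 (limma adjusted p = 0.0151) and with the block (0.0384) but not with all 6 libraries (0.101). Derl2 changed by -0.17 ± 0.19 and the lectin Os9 by 0.09 ± 0.17.

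**Figure D3:**
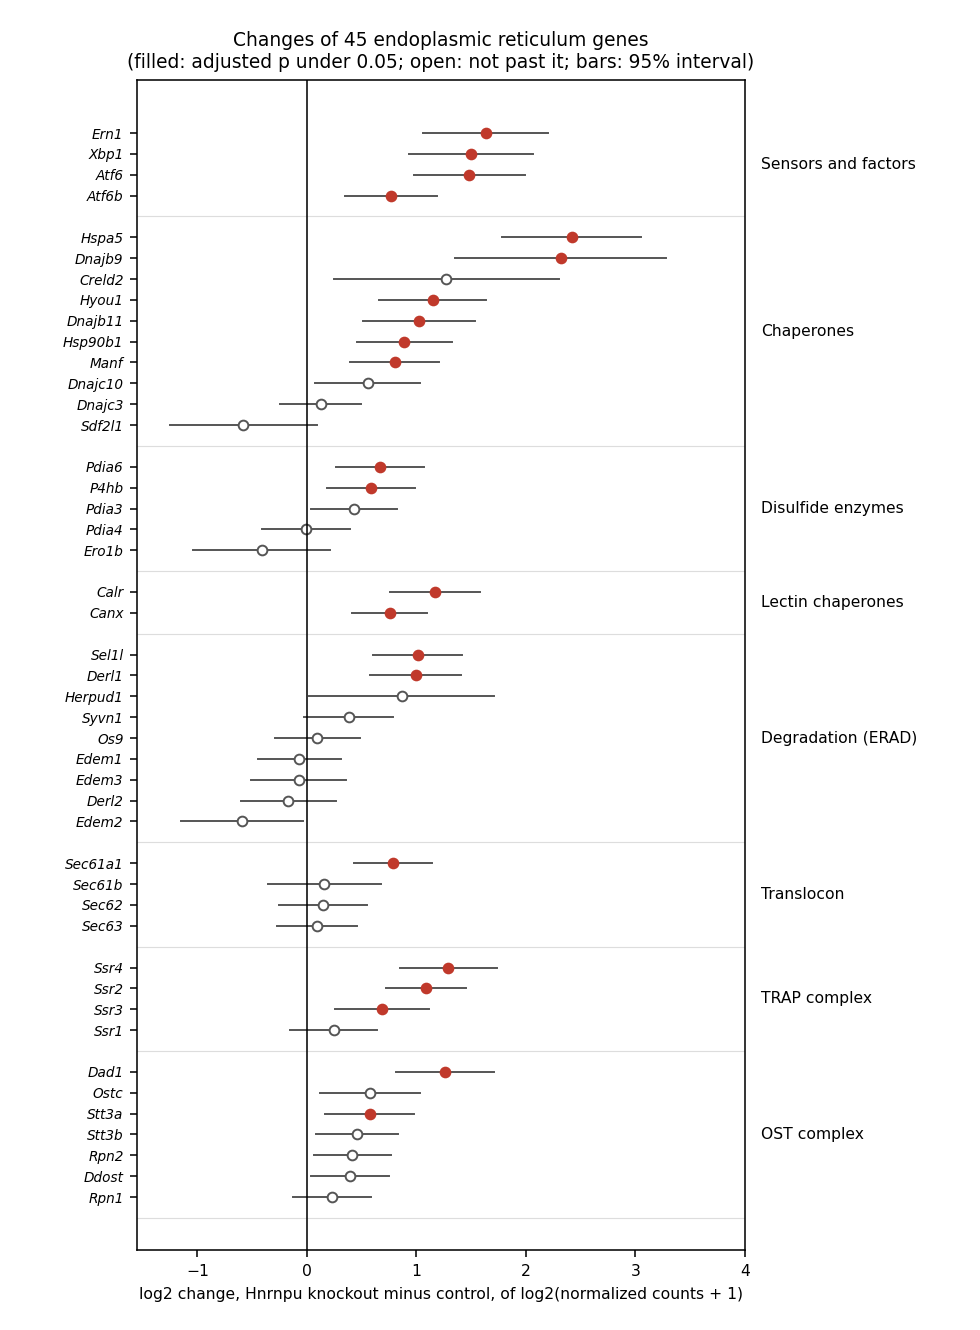
Log2 change of knockout minus control (x axis) for each of the 45 ER genes (y axis), grouped by role, with unadjusted 95% intervals as bars. Filled points passed an adjusted p of 0.05 and all 22 lie right of 0, with Hspa5 at 2.42 farthest right.

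At the translocation channel, Sec61a1 alone of 4 measured genes passed, where 17.7% of all genes rose. Sec61a1, the pore subunit, had 1656, 1892 and 1723 normalized counts in the knockout-labelled libraries, against 948, 1062 and 1050 in controls. The log2 change was 0.78 ± 0.16 (limma adjusted p = 0.00679), or 0.44 with equal library totals and 0.52 with quantile normalization. The small subunit Sec61b and the accessory proteins Sec62 and Sec63 changed by 0.16 ± 0.23, 0.14 ± 0.18 and 0.09 ± 0.16, and the groups of all 3 overlapped. Sec63 had 489, 556 and 539 normalized counts in the knockout-labelled libraries and 476, 521 and 487 in controls, and its 95% interval ran from -0.28 to 0.46.

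The translocon-associated protein (TRAP) complex, which sits beside the channel and helps some proteins enter, is a complex of the products of Ssr1 to Ssr4, and 3 of these 4 genes rose. Ssr4 had 758, 1072 and 949 normalized counts in the knockout-labelled libraries, against 331, 415 and 382 in controls, a log2 change of 1.29 ± 0.19 (limma adjusted p = 0.00212). Ssr2 had 873, 907 and 891 normalized counts in the knockout-labelled libraries, against 391, 461 and 404 in controls, a change of 1.09 ± 0.16 (limma adjusted p = 0.00190). For both genes the lowest knockout-labelled library was far above the highest control. Ssr3 rose by 0.68 ± 0.19 (limma adjusted p = 0.0250) but missed the threshold in 9 of the 17 alternatives, among them those without control 1, 2 or 3 or knockout 2 (0.0756, 0.0538, 0.0971 and 0.0520). Ssr1 had 1318, 1424 and 1162 normalized counts in the knockout-labelled libraries, against 1200, 1148 and 947 in controls, overlapping, with a change of 0.25 ± 0.17. Whether Ssr1 differs from its partners was not tested.

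All 7 oligosaccharyltransferase genes had knockout-labelled libraries wholly above the controls, where 25.8% of all genes did. Only Dad1 and Stt3a passed, 2 of the 7, where 17.7% of all genes rose. Dad1, a small subunit, had 364, 429 and 358 normalized counts in the knockout-labelled libraries, against 153, 187 and 139 in controls, a log2 change of 1.26 ± 0.20 (limma adjusted p = 0.00239). Stt3a, the catalytic subunit that works beside the channel, had 924, 1017 and 770 normalized counts in the knockout-labelled libraries and 583, 674 and 559 in controls. It rose by 0.57 ± 0.18 (limma adjusted p = 0.0391), a call lost in 10 of the 17 alternatives, including those without control 1, 2 or 3 or knockout 1 or 2 (0.116, 0.0714, 0.130, 0.0799 and 0.0893). Stt3b, the other catalytic subunit, had 892, 1012 and 807 normalized counts in the knockout-labelled libraries and 627, 694 and 646 in controls, a change of 0.46 ± 0.17 (limma adjusted p = 0.0627). The remaining subunits Ostc, Rpn2, Ddost and Rpn1 changed by 0.58 ± 0.20, 0.42 ± 0.15, 0.39 ± 0.16 and 0.23 ± 0.16. With the block Ostc, Stt3b and Rpn2 passed (0.0331, 0.0345 and 0.0470), and Ostc also did without knockout 1 (0.0495).

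The promoter element shown at the start was set beside these changes. Of the 9 genes with an exact ERSE 5 rose and 0 fell, with a median log2 change of 0.76. Dnajc3, Creld2, Ero1b and Syvn1 carry the element and did not pass. Adding Herpud1 and Dnajb11, which carry ERSE-II, gave 6 of 11 with a median of 0.87. Of the 27 other measured genes with a promoter sequence 10 rose, with a median of 0.42, and these include Ern1, Xbp1, Dnajb9 and Sel1l. The measured genes Atf6, Hyou1, Manf, Derl1, Sec61a1, Ssr2 and Ostc had no promoter sequence and are in neither class. Of these only Ostc did not pass, and the others rose by 0.78 (Sec61a1) to 1.48 (Atf6), so the medians of the classes leave out many rises. Among all genes tested, 16 had an ERSE, and of these 8 rose and 1 fell. The 16 include the 9 genes above, so they are not a separate set. The difference between the promoter classes was not tested.

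**Figure D4:**
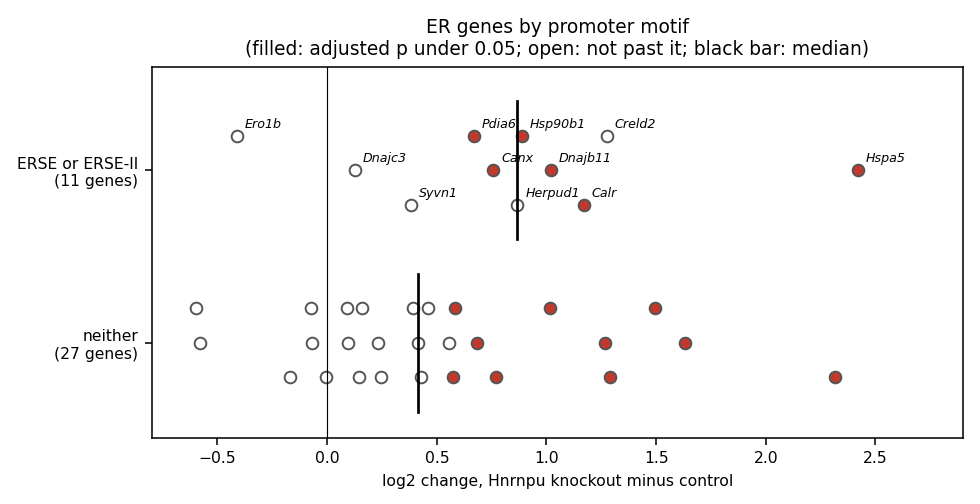
Log2 change of knockout minus control (x axis) of ER genes whose RefSeq promoter holds an exact ERSE or ERSE-II (upper row, 11 genes) or neither (lower row, 27 genes), with filled points past an adjusted p of 0.05 and the median as a black bar. The medians are 0.87 and 0.42, the rows overlap widely, and Hspa5 stands at 2.42. Measured genes without a promoter sequence, most of which rose, are not drawn.

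Further genes of the secretory pathway, outside the 45, were read from 14 lists. Of 183 such genes 54 rose and 8 fell, with a median log2 change of 0.37, where 17.7% of all genes rose and 15.9% fell. With equal library totals, which lowers the median of all genes to -0.36, 31 rose and 22 fell, against 11.2 and 23.8% of all genes. With the sex term, Krtcap2, Gfpt1, Gnpnat1, Ero1a, Qsox1, Atf4, Chac1, Creb3, Bax and Retreg3 kept the calls given below, and the other called genes named below with a value lost theirs (limma adjusted p = 0.0507 to 0.402; Kdelr3 0.136, Srprb 0.0507 and Srpr 0.0926). Against the wild type control alone Srprb, Krtcap2, Gfpt1, Ero1a, Qsox1, Atf4, Chac1 and Bax kept theirs, and Kdelr3, Creb3, Gnpnat1 and Retreg3 were among those lost (0.0552, 0.0603, 0.0909 and 0.0957). That is fewer rises in proportion than among the 45, although the difference was not tested. In the route to the channel, 5 of 10 genes of the signal recognition particle and its receptor rose, led by the receptor subunits Srprb (1.46 ± 0.23) and Srpr (1.15 ± 0.21). Of the annotated exonic bases of Srprb 20.7% are shared with a same-strand gene. Srp54a, Srp54b and Srp54c are near-identical copies among which reads may be split, and Srp54a is 1 of the 5. None of the 5 signal peptidase genes passed. Of 7 genes that insert tail-anchored proteins 5 rose, among them Get3 (0.80 ± 0.20) and Sgta (0.73 ± 0.18). Both calls were lost without control 1 (limma adjusted p = 0.0598 and 0.0720) and with equal library totals (0.0911 and 0.107), and that of Get3 also without control 2 (0.0709). In the ER membrane protein complex, which inserts membrane segments, Emc7 rose and Emc8 fell while 8 others did not pass. The Emc8 change was -1.22 ± 0.27 and its call was lost without control 1 (0.0504). Emc7 missed the threshold without control 1, 2 or 3 or without knockout 2 or 3 (0.126, 0.108, 0.141, 0.115 and 0.0808). With equal library totals the Emc7 change went from 0.556 to 0.215, and that call was lost too (limma adjusted p = 0.371).

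Glycan and disulfide genes outside the 45 gave a mixed picture. Krtcap2, a small oligosaccharyltransferase subunit, had 423, 597 and 451 normalized counts in the knockout-labelled libraries, against 48.3, 48.7 and 81.7 in controls. The groups were far apart, with a log2 change of 3.05 ± 0.27 (limma adjusted p = 2.06e-04), while the other 3 subunits on its list did not pass. Of the annotated exonic bases of Krtcap2 15.7% are shared with an opposite-strand gene. Of 24 genes of glycan precursor synthesis 4 rose and 1 fell, a share of rises near that of all genes. The rises were led by Gfpt1 (2.47 ± 0.31) and Gnpnat1 (1.91 ± 0.34), which act on the route to the sugar nucleotide used for N-glycans and other glycans. Most annotated exonic bases of Gnpnat1, 83.5%, are shared with other genes, Styx on the opposite strand and Gm25353 on the same one, so its value is uncertain. Of 8 trimming and folding-check genes Prkcsh rose (0.90 ± 0.18), a call lost with equal library totals (0.0551), and Man1b1 fell (-0.55 ± 0.17, or -0.89 with equal library totals). The Man1b1 call was lost whichever 1 library was left out (limma adjusted p = 0.0640 to 0.148). Among 13 other disulfide enzymes 4 rose and Tmx4 fell. Ero1a, the paralog of Ero1b, had 1860, 2829 and 1794 normalized counts in the knockout-labelled libraries, against 433, 502 and 703 in controls, and rose by 1.98 ± 0.25 (limma adjusted p = 9.74e-04). The sulfhydryl oxidase Qsox1 rose by 1.75 ± 0.25. The Tmx4 change was -0.79 ± 0.22, and it missed the threshold without control 1, 2 or 3 (0.0855, 0.0718 and 0.0688).

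Other chaperones rose for 5 of 22, a share near that of all genes, with the smallest adjusted p for the calcium-binding proteins Calu (0.95 ± 0.18, or 0.61 with equal library totals) and Sdf4 (0.82 ± 0.17), and Tor1a fell by 0.82 ± 0.23. The Sdf4 call was lost with equal library totals (limma adjusted p = 0.0957), and that of Tor1a without control 1, 2 or 3 or knockout 2 (0.0771, 0.0590, 0.106 and 0.0621). Further ERAD genes rose for 7 of 24 and fell for 0, among them Ubxn6 at 1.10 ± 0.18. Of the exonic bases of Ubxn6 81.8% are shared with an opposite-strand gene, so its value is uncertain. In ER export 10 of 24 rose and 0 fell. Kdelr3, a receptor that returns escaped ER proteins, had 44.9, 93.6 and 54.3 normalized counts in the knockout-labelled libraries, against 8.31, 22.1 and 12.3 in controls, a log2 change of 2.13 ± 0.46 (limma adjusted p = 0.00948). The cargo receptor Surf4 rose by 0.88 ± 0.19, or 0.54 with equal library totals. Of the 8 receptors that deliver ER to the lysosome 0 rose and 2 fell, where 17.7 and 15.9% of all genes did, so the count of falls is close to that of all genes. They were Retreg3 (-1.60 ± 0.24) and Retreg1 (-0.65 ± 0.16, or -0.99 with equal library totals). Retreg3 had 347, 267 and 491 normalized counts in the knockout-labelled libraries, against 962, 1139 and 1155 in controls, and the Retreg1 call was lost without control 2 or 3 (0.0833 and 0.0626).

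**Figure D5:**
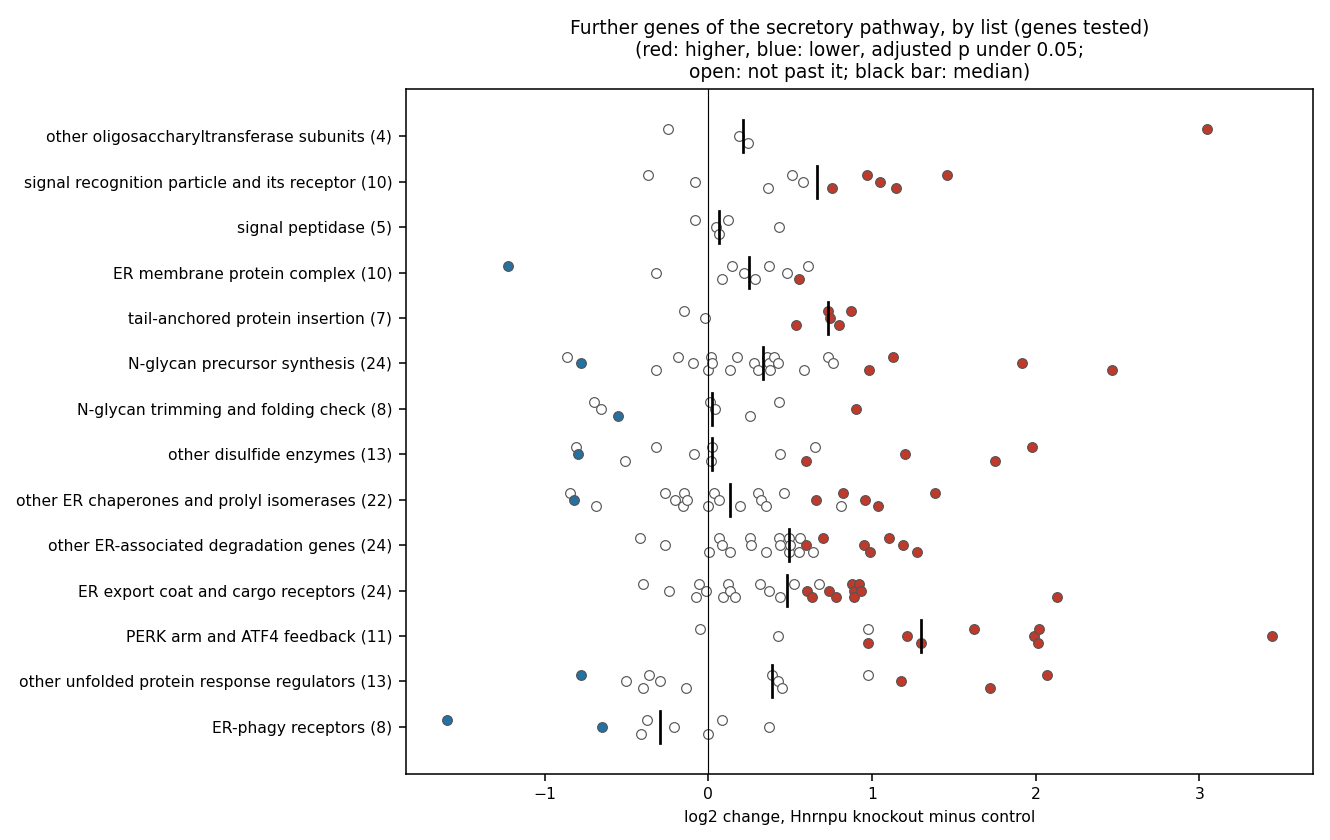
Log2 change of knockout minus control (x axis) of secretory pathway genes outside the 45, by list (y axis, number of genes tested in brackets), with red for higher and blue for lower at an adjusted p of 0.05, open points for genes not past it and black bars for medians. The PERK and ATF4 list has the highest median, 1.30, and the ER-phagy list the lowest, -0.29.

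Outside the 45, 1 list held genes of the PERK arm and of feedback through ATF4. Of the 11 genes on this list 8 rose and 0 fell, with a median log2 change of 1.30. The activity of PERK was not measured, and what raised these genes was not tested. Atf4 had 3680, 5133 and 3045 normalized counts in the knockout-labelled libraries, against 895, 816 and 1263 in controls, a change of 1.99 ± 0.25 (limma adjusted p = 9.34e-04). Chac1, a glutathione-degrading enzyme and ATF4 target, rose by 3.44 ± 0.41. Eif2ak3, which encodes the sensor PERK itself and was named after its values were seen, had 103, 89.7 and 141 normalized counts in the knockout-labelled libraries, against 124, 92.1 and 127 in controls. Its groups overlapped and its change was -0.05 ± 0.25. On the list of other regulators 3 of 13 rose, a share near the 17.7% of all genes. Among them were the cell death gene Bax (2.07 ± 0.26) and the ER-bound factor Creb3 (1.72 ± 0.24). Of the annotated exonic bases of Bax 12.2% are shared with a same-strand gene, and of those of Creb3 20.8% with opposite-strand genes. Mbtps1, the protease that makes the first cut in ATF6, fell by 0.78 ± 0.22 (limma adjusted p = 0.0250), with 395, 267 and 306 normalized counts in the knockout-labelled libraries and 628, 571 and 456 in controls. That call was lost without control 1 or 2 or knockout 2 (0.0942, 0.0848 and 0.0633).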

How the data were processed

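Bulk RNA was profiled in 6 libraries, 3 labelled Hnrnpu knockout and 3 controls. The authors deposited normalized counts per gene (signal, at or above 0), with 1 row per sample. Build mm39, Partek 9.0.20.0202 and TopHat2 2.1.0 are named in the submitters' processing notes; the normalization is not given in the sources used here. Between 81.8 and 84.0% of low values were whole multiples (within 0.02) of the worth of 1 read, so reads were not recovered. Symbols matched 12771 IDs. Genes above 1 in at least 3 libraries (12872) were tested as log2(value + 1) by limma 3.58.1 in R 4.3.3 with a mean-variance trend, Benjamini-Hochberg adjusted, threshold 0.05; fold changes are on that scale and errors are moderated SE. The fit was tested on simulated data. Adjacent animal numbers in the titles (216 with 217, 241 with 242, 250 with 251) gave correlated deviations from group means (0.37, 0.23 and 0.36), against -0.28 to -0.07 for other pairs. Deviations within a group sum to 0, so the negative values of other pairs follow in part from the positive ones and are not a separate contrast. On this check, with no litter stated, an alternative fit treated them as pairs. Titles are read as separate animals; p-values measure only the spread between these samples. Genes and lists were chosen with earlier results of these data known. Of the 45 genes all are named; of each further list, up to 2 genes by smallest adjusted p and up to 3 of the rarer direction, some of which are not reported here. Protein sequences were not used here.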

Additional observations from a re-analysis of the deposited data

How the results depend on the processing

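Of the 45 genes 22 rose and 0 fell, with a median log2 change of 0.59. With library totals set equal, which moved the median of all genes to -0.36, 14 rose, 1 fell and the median was 0.24. Quantile normalization gave a median of 0.39. With sex as a term 8 rose, and against the wild type control alone, where the spread comes from the knockouts only, 3 rose (Hspa5, Xbp1 and Hyou1). With a replicate block built on neighbouring animal numbers 29 rose and 1 fell. The share of all genes called is given above for the main fit, the sex term and equal totals only. Counts from the other fits have no such share beside them and are not read as particular to these genes. Leaving out each replicate gave 17 to 23 rises, 0 to 1 falls and medians of 0.54 to 0.67. Of the 183 further genes 54 rose and 8 fell. These were 31 and 22 with equal totals, 15 and 1 with the sex term, 9 and 0 with the wild type control alone, 34 to 57 and 2 to 9 without each replicate, and 68 and 11 with the block. Fits with fewer libraries have fewer degrees of freedom. No called change turned its direction. Pseudocounts of 0.5 and 5, no filter, a filter at 10 and the robust fit changed no call among the 45, and 3 were lost without the trend. Sdf2l1, Ero1b and Creld2 stayed under 100 normalized counts in every library and rest on the fewest reads.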
